A study of Rattus norvegicus with 59 samples.

Results

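Nuclei of the rat left ventricle were sorted on PCM1, and nuclear RNA of the PCM1-positive nuclei was compared with that of the PCM1-negative nuclei from the same hearts. The hearts were those of control animals 1 and 5, untrained male Sprague Dawley rats that carried no operation. They weighed about 280 g at the start. The comparison rests on 2 PCM1-positive and 2 PCM1-negative samples, and its values used here are those of the authors' deposited table, with 1 average level and 1 log2 fold change per gene and no value per sample. All 12848 genes of that table were taken, of 22938 genes in the count tables. The deposited fold change was PCM1-negative over PCM1-positive, as read from the levels in the PCM1-positive library of control 1, and it is given here with its sign turned, as PCM1-positive over PCM1-negative.

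PCM1 is a protein of the centriolar satellites, the granules that gather around the centrioles. In cardiomyocytes it lies on the surface of the nucleus, so that an antibody against it allows flow sorting of these nuclei away from the rest of the heart. The nuclei without PCM1 in a ventricle come largely from fibroblasts, endothelial cells, the mural cells of vessels and immune cells. Nuclear RNA holds many transcripts that are still being made or processed, so its levels need not follow those of the RNA of a whole cell.

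The series held 59 samples, of which 16 RNA libraries had count columns, all from PCM1-positive nuclei and with 4 libraries per condition. In rats of about 170 g, the ascending aorta was banded for 6 weeks (banded 1 to 4, kept per the labels only with a thickened and non-failing ventricle) or the operation was done as a sham (sham 1 to 4). Rats of about 280 g at the start ran on a treadmill for 6 weeks (trained 1 to 4) or stayed untrained (control 1 to 4). Of the sorted pair of animals, control 1 has a count column for its PCM1-positive nuclei, while the counts of its PCM1-negative nuclei and of control 5 were not analysed here.

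The 16 libraries held from 1822538 to 14394757 counts. The smallest stored count was 1 in each of them. Whether 1 was added to every count or counts of 0 were raised to 1 was not tested. Sham 2 and sham 3 differed by little more than counting error and were counted as 1 sample (variance 1.07 times that of counting over 8196 genes with 21 to 750 summed counts, against at least 2.70 in the other pairs within a condition). Sham 1 and banded 1 stood apart from the other 14 libraries, as described below with the genes concerned. The files pair no gene ID with a name and the reference gene table carried 0 Ensembl IDs, so the 311 genes of 24 cell type and pathway lists could not be placed on either side and were not analysed here. The names of the fractions are therefore those of the labels, not checked against markers of cardiomyocytes or other cells. Genes are described below by the side and size of their fold, with 2 IDs named on each side. In sorted nuclei measured in bulk, fewer nuclei of a type and less RNA per nucleus cannot be told apart.

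The fractions differed widely, and of all genes listed more were higher in PCM1-negative than in PCM1-positive nuclei past 2-fold and past 8-fold. In the authors' deposited table, 2690 genes were over 2-fold higher in PCM1-positive nuclei, 20.9% of the genes listed, and 3318 genes were over 2-fold higher in PCM1-negative nuclei, 25.8% of the genes listed. Among genes with an average level of at least 4 log2 CPM the order turned, with 1865 over 2-fold on the PCM1-positive side and 1503 on the PCM1-negative side of the authors' deposited table. Past 8-fold the authors' deposited table had 604 genes on the PCM1-positive side (4.7%) and 1319 on the PCM1-negative side (10.3%). Past 32-fold it had 40 genes on the PCM1-positive side against 112 on the PCM1-negative side. The table gives no error, so these are counts of effect sizes and not of tested differences.

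The middle of the distribution lay close to 0, and its tails were unequal. The median log2 fold change over the 12848 genes of the authors' deposited table was -0.04, with 6205 genes above and 6643 below 0. From the lower to the upper quartile the log2 fold change in the authors' deposited table ran from -1.06 to 0.80, and from the 5th to the 95th percentile from -3.88 to 2.91. The farthest genes in the authors' deposited table stood at 7.69 on the PCM1-positive side and at -6.26 on the PCM1-negative side. The thresholds cut a continuous distribution, since the genes just inside and just outside 8-fold in the authors' deposited table had log2 fold changes of 3.00609 and 2.99969 on the PCM1-positive side and of -3.00001 and -2.99649 on the PCM1-negative side.

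The genes on the PCM1-positive side were fewer but of higher average level. Average level here is the table's own log2 CPM, with CPM a gene's count scaled to a fixed library total, over the fractions compared. The genes over 8-fold on the PCM1-positive side had a median level of 6.43 log2 CPM in the authors' deposited table, against 4.30 log2 CPM for those over 8-fold on the PCM1-negative side. The 6840 genes within 2-fold had a median level of 4.77 log2 CPM in the authors' deposited table. Summed as CPM, the 604 genes over 8-fold PCM1-positive made up 21.5% of the authors' deposited table and the 1319 genes over 8-fold PCM1-negative made up 6.40%.

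Level and side were related along the whole range. Among the 784 genes above 8 log2 CPM in the authors' deposited table, 50.3% were over 2-fold higher in PCM1-positive nuclei and 11.1% over 2-fold higher in PCM1-negative nuclei. Among the 1958 genes under 2 log2 CPM in the authors' deposited table, those shares were 16.8% and 37.7%. The median log2 fold change in the authors' deposited table was 1.03 in the highest of these bins and -0.41 in the lowest, with -0.37, -0.04 and 0.25 in the bins from 2 to 4, 4 to 6 and 6 to 8 log2 CPM. Genes of high CPM thus lay more often on the PCM1-positive side and those of low CPM more often on the PCM1-negative side. CPM is not corrected for gene length, so it does not rank the genes by number of RNA molecules. Across the 12848 genes of the authors' deposited table, Pearson's r of fold change and level was 0.207, a description over genes that share the same libraries.

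**Figure D1:**
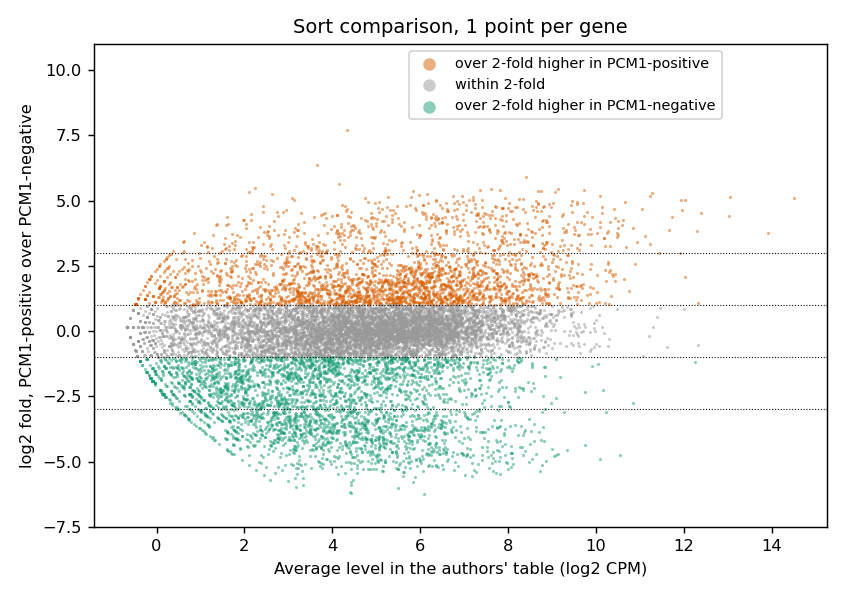
Log2 fold change of PCM1-positive over PCM1-negative nuclei (vertical axis) against the average level in log2 CPM (horizontal axis) in the authors' deposited table, 1 point per gene, with the genes over 2-fold on each side in colour. The points over 2-fold number 2690 above and 3318 below, and the upper group extends further to the right, toward high levels.

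The genes of intermediate fold followed the same order of levels. In the authors' deposited table the 654 genes from 4-fold to 8-fold on the PCM1-positive side had a median of 5.70 log2 CPM and the 1432 genes from 2-fold to 4-fold one of 5.13 log2 CPM. On the PCM1-negative side, the median level in the authors' deposited table was 3.55 log2 CPM for the 1223 genes from 2-fold to 4-fold and 3.05 log2 CPM for the 776 genes from 4-fold to 8-fold. The genes past 8-fold on the PCM1-negative side, at 4.30 log2 CPM, did not continue this decline.

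A level for each fraction was then computed from the fold change and the average level of each gene, on the assumption that the average is the log2 of the mean of the fractions. Shares were taken of the summed CPM of each fraction, by this reading of the authors' deposited table. Genes over 8-fold PCM1-positive made up 33.0% in PCM1-positive nuclei and 3.05% in PCM1-negative nuclei in the authors' deposited table. Genes over 8-fold PCM1-negative made up 0.592% in PCM1-positive nuclei and 15.7% in PCM1-negative nuclei in the authors' deposited table. Genes within 2-fold made up 35.3% of the PCM1-positive CPM and 53.2% of the PCM1-negative CPM in the authors' deposited table. The classes were cut on the same fold changes, so each class holds the larger share on its own side by construction. Past 8-fold, the 604 PCM1-positive genes held 33.0% of their own fraction, against 15.7% for the 1319 PCM1-negative genes in theirs. These shares assume the stated meaning of the average level and carry no error.

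The sign of the comparison rests on the library of control 1, which is itself one of the samples behind the table. Over the genes, the difference of control 1 from the table's average level had a Pearson's r of -0.820 with the fold change as the authors' deposited table writes it, and the other 3 controls, which are no part of the sort comparison, gave -0.780, -0.808 and -0.804. Each of the 16 libraries gave a negative r, with the weakest in banded 1 (-0.287) and sham 1 (-0.286). Of the 6008 genes over 2-fold on either side in the authors' deposited table, control 1 lay on the table's side of the average for 85.1% and controls 2, 3 and 4 for 83.0%, 84.8% and 86.2%. In banded 1 that share was 65.9% and in sham 1 it was 65.6%. The points are genes measured in the same libraries, so no p is given.

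Both sides were then followed in the controls. If the average is the log2 of the mean of the fractions, a gene of the PCM1-positive side can lie at most 1 log2 unit above it in PCM1-positive nuclei while a gene of the PCM1-negative side can lie far below it, so the sizes on the 2 sides are not comparable. All 1319 genes over 8-fold PCM1-negative in the authors' deposited table lay below the table's average in control 1, by a median of 2.80 on the log2 scale. Control 1 is among the samples behind the table, so this side was largely set by the fold itself. In controls 2, 3 and 4, outside the sort, the median log2 differences were -2.87, -3.52 and -2.64. Of the 604 genes over 8-fold PCM1-positive in the authors' deposited table, 83.6% lay above the average in control 1, by a median of 0.38 over all 604, and 99 genes lay below it. Genes within 2-fold lay a median of 0.40 below the average of the authors' deposited table in control 1 (log2 difference -0.40), so a difference of 0 is not the neutral point of this scale. Of the 604, 20 genes lay more than 1 log2 unit below the average of the authors' deposited table in control 1. Controls 2, 3 and 4 held 25, 28 and 13 such genes. More than 1 log2 unit above the average lay 24 of the 604 in control 1. In controls 2, 3 and 4 these were 81, 82 and 48 genes. They lay past the bound given above, so the assumed meaning of the average did not hold for them in these single libraries. For those 20 genes the control 1 library did not carry the high PCM1-positive level that the fold change of the authors' deposited table implies, and the counts of control 5 were not analysed here.

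The implied PCM1-positive level was strongly correlated with the measured one in most libraries. Over the 7773 genes at 4 log2 CPM or more in the authors' deposited table, the measured log2 CPM of control 1 had an r of 0.978 with the implied PCM1-positive level and of 0.456 with the implied PCM1-negative level. Control 1 is among the samples behind these levels, so its r is no independent check. Trained libraries had an r of 0.970 to 0.979 with the implied PCM1-positive level of the authors' deposited table, and controls 2 to 4 an r of 0.969 to 0.974. The r with the implied PCM1-positive level was 0.858 in banded 1 and 0.856 in sham 1, and with the implied PCM1-negative level of the authors' deposited table it was 0.690 in banded 1 and 0.687 in sham 1. In the other 14 libraries the r with the implied PCM1-positive level of the authors' deposited table was at least 0.933 and that with the implied PCM1-negative level at most 0.526. An r over genes does not measure closeness. The SD of measured minus implied PCM1-positive log2 level ran from 0.40 (trained 4) to 0.49 (trained 2) in trained and control libraries. It was 0.57, 0.69 and 0.69 in banded 2 to 4. In sham 2 to 4 it was 0.49, 0.47 and 0.66, and it was 1.00 in banded 1 and sham 1.

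**Figure D2:**
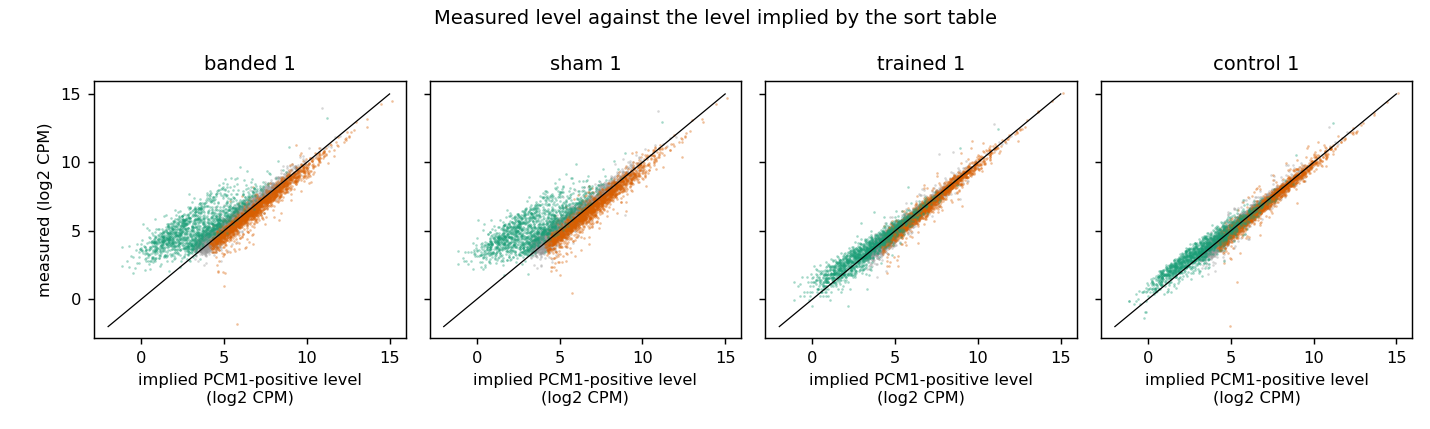
Measured log2 CPM in 1 PCM1-positive library (vertical axis) against the PCM1-positive level implied by the authors' deposited table (horizontal axis, log2 CPM), 1 point per gene and 1 panel each for banded 1, sham 1, trained 1 and control 1, with the line of equal values. Control 1 (r = 0.978 over the 7773 genes at 4 log2 CPM or more) follows the line, while banded 1 (0.858) and sham 1 (0.856) lie above it for genes of low implied level. Colours mark genes over 2-fold on the PCM1-positive (orange) and PCM1-negative (green) side.

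Each library's share of counts in the strongly separated genes was then measured. Genes over 8-fold PCM1-positive took 23.5%, 30.3%, 30.0% and 28.9% of the counts of banded 1 to 4, against 24.6%, 31.6%, 31.8% and 30.7% in sham 1 to 4. They took 32.0%, 31.2%, 31.5% and 32.6% in trained 1 to 4, against 30.5%, 32.0%, 31.9% and 31.0% in control 1 to 4. Banded 1 and sham 1 were the lowest of the 16 libraries, and the trained and control libraries overlapped. The mean was 28.2% ± 3.16 in banded rats (SD, n = 4) and 29.0% ± 3.85 in sham rats (SD, n = 3), and 31.9% ± 0.608 in trained and 31.4% ± 0.726 in control rats (SD, n = 4 each). Both differences were smaller than the spread within groups. Between same-numbered libraries, with sham 2 and 3 apart, the banded share was lower in all 4 (-1.84 to -1.10 percentage points). Sham 2 and sham 3 are not independent there. The trained share went both ways (-0.789 to 1.63 percentage points).

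Genes over 8-fold PCM1-negative took a small share of counts in most PCM1-positive libraries. The share was 4.45%, 0.859%, 1.31% and 1.68% in banded 1 to 4, against 4.32%, 0.685%, 0.658% and 1.58% in sham 1 to 4. In trained 1 to 4 it was 0.865%, 0.611%, 0.614% and 0.758%, against 0.956%, 0.728%, 0.536% and 0.944% in control 1 to 4. Banded 1 and sham 1 were the highest of the 16 libraries, followed by banded 4, sham 4 and banded 3. Counting error was small beside these gaps, since the exact binomial 95% interval in control 2, the shallowest library, ran from 0.716% to 0.740%. Such intervals cover counting error only. The mean was 2.08% ± 1.62 in banded rats (SD, n = 4) and 2.18% ± 1.90 in sham rats (SD, n = 3), and 0.712% ± 0.123 in trained and 0.791% ± 0.200 in control rats (SD, n = 4 each), all within the spread of their comparison group. Between same-numbered libraries, with the dependent sham 2 and 3 apart, the banded share was higher in all 4 (0.108 to 0.656 percentage points). The trained share went both ways (-0.187 to 0.0784 percentage points). The share implied for PCM1-positive nuclei by the authors' deposited table was 0.592% and that for PCM1-negative nuclei 15.7%, so every library lay nearer to the PCM1-positive value. The surgery and exercise libraries were counted in separate tables, so levels set across them may carry a difference between the experiments.

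**Figure D3:**
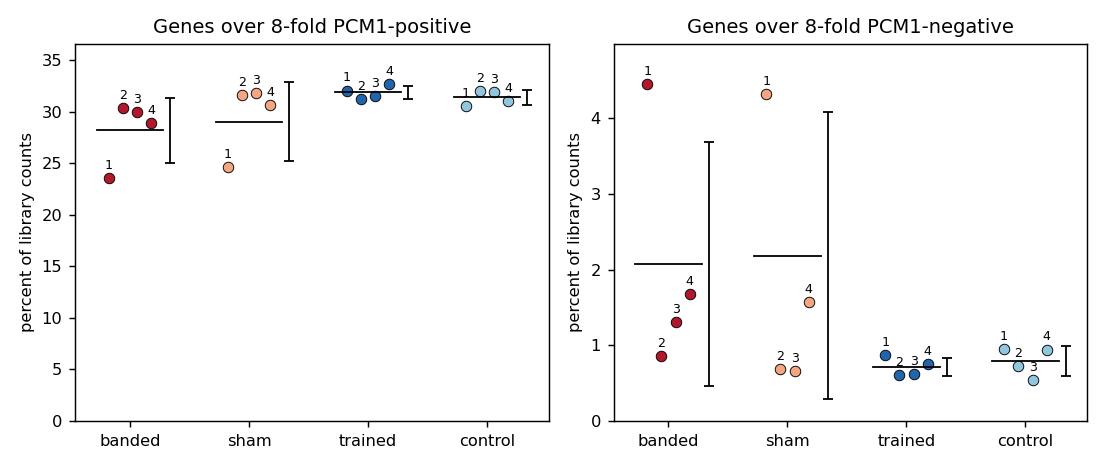
Percent of each PCM1-positive library's counts (vertical axes, starting at 0) in genes over 8-fold PCM1-positive (left) and over 8-fold PCM1-negative (right), 1 numbered point per library in 4 conditions. Lines are group means and bars the SD beside them (n = 4, and n = 3 for sham, where libraries 2 and 3 count once), and banded 1 and sham 1 are lowest on the left and highest on the right.

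The broader classes moved the same way. Genes over 2-fold PCM1-positive took 47.5% of counts in banded 1 and 48.1% in sham 1, against 55.8% to 59.8% in the other 14 libraries. Genes over 2-fold PCM1-negative took 11.3% in banded 1 and 10.8% in sham 1, against 3.52% to 6.09% in the other 14 libraries. The genes outside the authors' deposited table held 0.366% to 0.841% of the counts of a library, so the classes cover nearly everything counted.

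The departure of sham 1 and banded 1 grew with the fold toward PCM1-negative nuclei. For every gene, each library's log2 CPM was set against the median of the 16 libraries, and the median over each class was taken. In banded 1 this value ran through -0.33, -0.23, -0.11, 0.13, 0.72, 1.31 and 2.16 from the genes over 8-fold PCM1-positive, class by class, to those over 8-fold PCM1-negative. In sham 1 the same steps were -0.35, -0.25, -0.15, 0.11, 0.62, 1.22 and 2.12. Among the genes over 8-fold PCM1-negative, 99.2% lay above the median of the 16 libraries in banded 1 and likewise 99.2% in sham 1. In the same class, the value was 0.56 in banded 3 and 0.77 in banded 4, and 0.63 in sham 4. It was -0.12 in banded 2, and -0.33 and -0.47 in sham 2 and sham 3. It lay between -0.59 and -0.0015 in trained libraries, against -0.72 to 0.07 in control libraries. In this class the surgery libraries thus ranged from -0.47 to 2.16 and the exercise libraries from -0.72 to 0.07.

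**Figure D4:**
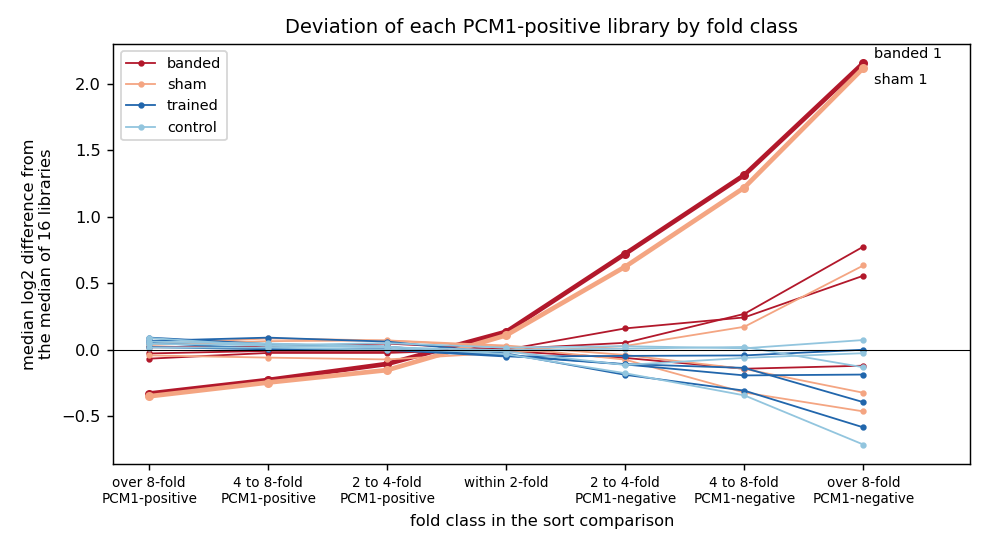
Median log2 difference of each PCM1-positive library from the median of 16 libraries (vertical axis) over the 7 fold classes of the sort comparison (horizontal axis), 1 line per library. Banded 1 and sham 1 climb to 2.16 and 2.12 in the genes over 8-fold PCM1-negative and lie at -0.33 and -0.35 in those over 8-fold PCM1-positive.

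The same libraries stood highest gene by gene. Sham 1 and banded 1 were the 2 highest of the 16 libraries for 1134 of the 1319 genes over 8-fold PCM1-negative, or 86.0%, beside 21.6% of all 12848 genes of the table. The share was 62.6% of the genes from 4-fold to 8-fold and 41.1% of those from 2-fold to 4-fold on the PCM1-negative side, 9.47% of the genes within 2-fold, and 0 in each class on the PCM1-positive side. They were the 2 lowest libraries for 12.6% of the genes over 8-fold PCM1-positive, beside 1.56% of all genes, and for 0 genes over 8-fold PCM1-negative. One of these libraries is banded and the other sham-operated, and both carry the number 1. Whether the purity of the sort set these values was not tested.

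The replicate spread also differed between the sides. Over the 4 control libraries the median SD of log2 CPM was 0.25 for genes over 8-fold PCM1-positive and 0.64 for those over 8-fold PCM1-negative, and 0.23 for genes within 2-fold. Counting error enters this, since the median of the genes' mean counts was 525 on the PCM1-positive side and 11.8 on the PCM1-negative side. Among genes with mean counts of 50 to 500, the median SD was 0.30 for the 210 genes over 8-fold PCM1-positive and 0.52 for the 186 genes over 8-fold PCM1-negative, against 0.18 for 3758 genes within 2-fold. Within that range the median counts still differed, at 186 for the PCM1-positive class, 84.2 for the PCM1-negative class and 149 for genes within 2-fold, so the part of counting error in the PCM1-negative value was not tested.

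Depth limited what could be seen of the PCM1-negative side in these libraries. Of the 1319 genes over 8-fold PCM1-negative, 47 to 197 stood at the stored minimum of 1 count in a control library, the most in control 2, the library with 1822538 counts. In banded 1 and sham 1 these were 2 and 0 genes. Of the genes over 8-fold PCM1-positive, at most 6 stood at the minimum in any library.

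The 2 genes with the largest fold on each side, among those with an average level of at least 5 log2 CPM, were followed library by library. On the PCM1-positive side, ENSRNOG00000011094 had a log2 fold change of 5.90 in the authors' deposited table at an average level of 8.40 log2 CPM. Its level was 152, 165, 179 and 250 CPM in banded 1 to 4, against 88.1, 111, 116 and 122 CPM in sham 1 to 4. It was 112, 205, 188 and 69.3 CPM in trained 1 to 4, against 129, 601, 221 and 376 CPM in control 1 to 4. The banded libraries lay above all sham libraries, while trained and control libraries overlapped. Control 1 was the lowest of the controls and lay more than 1 log2 unit below the average of the authors' deposited table, so this gene is among the 20 of its class described above. Its edgeR log2 fold change was 0.77 for banded over sham rats (unadjusted p = 0.0160, adjusted p = 1.00) and -1.17 for trained over control rats (unadjusted p = 0.0184, adjusted p = 0.622), and neither passed.

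ENSRNOG00000033722 had a log2 fold change of 5.43 toward PCM1-positive nuclei in the authors' deposited table at 9.14 log2 CPM. It was at 521, 460, 770.5 and 444 CPM in banded 1 to 4, against 437, 559, 587 and 509 CPM in sham 1 to 4. In trained 1 to 4 it was at 668, 497, 673 and 821 CPM, against 600, 747, 614 and 679 CPM in control 1 to 4. The groups overlapped in both comparisons, with edgeR log2 fold changes of 0.09 for banding (adjusted p = 1.00) and 0.05 for training (adjusted p = 0.976).

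On the PCM1-negative side, ENSRNOG00000008447 had the largest fold of that side in the authors' deposited table, a log2 fold change of -6.26 at 6.08 log2 CPM. It was at 32.5, 4.93, 12.8 and 14.4 CPM in banded 1 to 4, against 45.0, 6.29, 5.92 and 9.13 CPM in sham 1 to 4. In trained 1 to 4 it was at 5.76, 4.21, 1.32 and 1.37 CPM, from 8 to 24 counts, against 2.69, 4.94, 1.73 and 3.89 CPM in control 1 to 4, from 9 to 21 counts. Sham 1 and banded 1 were the highest of the 16 libraries, and both pairs of groups overlapped. The edgeR log2 fold change was -0.29 for banding (adjusted p = 1.00) and -0.06 for training (adjusted p = 0.994).

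ENSRNOG00000023536 had a log2 fold change of -6.03 in the authors' deposited table at 5.49 log2 CPM. It was at 45.7, 8.89, 10.1 and 15.8 CPM in banded 1 to 4, against 55.6, 2.51, 4.19 and 23.4 CPM in sham 1 to 4. In trained 1 to 4 it was at 5.28, 3.28, 1.84 and 1.37 CPM, against 1.41, 1.65, 2.89 and 5.00 CPM in control 1 to 4. Sham 1 and banded 1 were again highest, and the groups overlapped, with edgeR log2 fold changes of -0.45 for banding (adjusted p = 1.00) and 0.06 for training (adjusted p = 0.994).

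**Figure D5:**
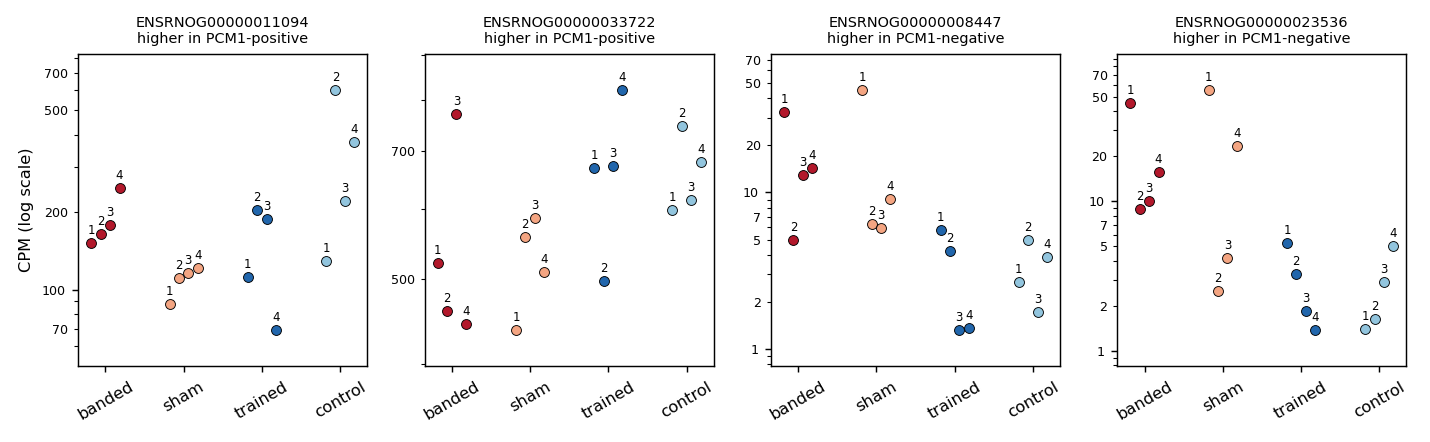
CPM on a log axis of the 4 named genes in the 16 PCM1-positive libraries, 1 panel per gene and 1 numbered point per library, by condition. For both genes higher in PCM1-negative nuclei, banded 1 (32.5 and 45.7 CPM) and sham 1 (45.0 and 55.6 CPM) lie above the other libraries, which the genes higher in PCM1-positive nuclei do not show.

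Banding and training were then tested gene by gene on the counts with edgeR's quasi-likelihood test, with p-values adjusted over all genes tested. For banding, 0 of the 2589 tested genes over 2-fold PCM1-positive and 0 of the 2991 over 2-fold PCM1-negative passed the threshold, beside 0.00788% of all 12689 genes tested. At an unadjusted p under 0.05 there were 76 genes on the PCM1-positive side, or 2.94% of those tested, 45 higher and 31 lower in banded rats. On the PCM1-negative side there were 31 (1.04%), 27 higher and 4 lower, beside 234 (1.84%) of all genes tested. DESeq2 called 1 gene of the PCM1-positive side, lower in banded rats, and 0 of the PCM1-negative side, beside 0.0158% of all genes. The median edgeR log2 fold change was 0.0059 on the PCM1-positive side and -0.015 on the PCM1-negative side.

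The banding effect of the PCM1-negative genes depended on the libraries that stand apart. The genes over 8-fold PCM1-negative had a median log2 fold change of -0.04 for banded over sham rats, with 44.1% higher in banded rats. Without sham 1 the median was 0.77 and 97.1% were higher, and without banded 1 it was -0.64 and 7.93% were higher. Without both it was 0.19, with 71.0% higher. The genes over 8-fold PCM1-positive had medians of -0.02 in all libraries, -0.19 without sham 1, 0.09 without banded 1 and -0.06 without both. The direction of both medians turned with which of the 2 libraries was left out. Banded 1 and sham 1 stood similarly high in the PCM1-negative class (2.16 and 2.12 above), so leaving out only 1 leaves the other to raise its own group. An edgeR fit that matched libraries by number kept both, with the dependent sham 2 and 3 apart. Its median was 0.14 over 2-fold PCM1-negative and -0.04 over 2-fold PCM1-positive, and 0 genes of either side passed. Unmatched, with sham 2 and 3 apart, these medians were 0.10 and -0.04.

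For training, 0 of the 2502 tested genes over 2-fold PCM1-positive and 0 of the 2005 over 2-fold PCM1-negative passed in edgeR, beside 0% of all 10815 genes tested (lowest adjusted p = 0.0709). At an unadjusted p under 0.05 there were 258 genes on the PCM1-positive side (10.3%), 162 higher and 96 lower in trained rats. On the PCM1-negative side there were 134 (6.68%), 54 higher and 80 lower, beside 761 (7.04%) of all genes tested. DESeq2 called 21 genes of the PCM1-positive side, 16 higher and 5 lower, and 4 of the PCM1-negative side, 2 higher and 2 lower, beside 0.342% of all genes. The median log2 fold change for trained over control rats was 0.03 for the genes over 8-fold PCM1-positive and -0.14 for those over 8-fold PCM1-negative, of which 32.2% of 746 tested were higher in trained rats. Over all genes tested the median was -0.0075, with 48.5% higher. The median over 2-fold PCM1-negative was -0.07. With each replicate left out in turn, that median ran from -0.14 (without control 3) to -0.02 (without trained 3).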

How the data were processed

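RNA of sorted nuclei was sequenced. For 16 libraries the authors deposited whole-number read counts by gene, per the file headers. For the sort they deposited a table of log2 fold change and average log2 CPM, whose false discovery rates were not used. Bowtie, SAMtools, edgeR and R 2.15.1 were used, per the submitters' processing notes. Not given in the sources used here are what each did, the build, the counting rule and the use of strand. Therefore genes that overlap, and near copies, are uncertain. The 2 unnamed total rows were left out. CPM was taken per library total.

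Counts were tested in R 4.3.3 with edgeR 4.0.16 (TMM, filterByExpr with minimum count 10 and minimum total 15, quasi-likelihood test, Benjamini-Hochberg adjustment, threshold 0.05) and DESeq2 1.42.0, after a check on simulated data. Shares carry exact binomial 95% intervals in the underlying tables, for counting error only. The labels do not say that replicates within a condition are separate animals, so each n counts samples. The p-values measure the spread between samples, which may be technical. Python 3.11.15, pandas 2.3.3 and matplotlib 3.10.9 were used for the rest.

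Members and lists were chosen with earlier results of these data known. The named genes are the largest folds per side at a level of at least 5 log2 CPM, 2 per side because no ID could be paired with a name (0 of 22938 matched to the 47357 genes of the RefSeq table, GRCr8). The planned marker lists were replaced by the sides of the sort, and no sequence is shown for the same reason. Same-numbered libraries were taken as unpaired, since their deviations did not correlate above 0.1 in every pair. For banding the r was 0.764, 0.506, 0.155 and 0.0860 for numbers 1 to 4. The highest r with another number was 0.157, 0.566, 0.147 and 0.0192 in turn. A pairing by number therefore remains possible for banding, and the blocked results are given below.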

Additional observations from a re-analysis of the deposited data

Results flagged for a closer look

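The share of counts in genes within 2-fold was 35.6% in trained 4, below the other trained libraries at 35.9%, 35.9% and 36.0%. It was marked because its gap to the nearest library was a large part of the group's range (Dixon's ratio above 0.829 for 4 samples). It was the 1 value marked among 42 groups examined, where chance marks about 1 in 20. The difference is a fraction of a percentage point.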

How the results depend on the processing

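At a 4-fold threshold the sort gave 1258 genes on the PCM1-positive side and 2095 on the PCM1-negative side, and at 8-fold 604 and 1319. At 4 log2 CPM or more, 1865 PCM1-positive and 1503 PCM1-negative genes were over 2-fold. Centring on the median gave 2787 and 3247, and the sign read from control 2, 3 or 4 was the same. For the genes of either side, DESeq2 called 1 for banding and 25 for training, and edgeR with no filter on low counts called 48 for training, where 0 passed otherwise. Among all genes tested, the training calls numbered 89 with no filter and 37 in DESeq2. Leaving out each replicate in turn left 0 genes of either side called in both comparisons. Of the genes over 8-fold PCM1-negative with a mean count of at least 10, 93.0% had sham 1 and banded 1 as the 2 highest libraries, and of all 1319 such genes 86.1% did with sham 2 left out, against 86.0% with it. The cause of these moves was not tested.

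The share of counts over 8-fold PCM1-negative differed by -0.109 percentage points for banded minus sham rats and, with each replicate left out in turn, by -0.900 (without banded 1) to 0.956 (without sham 1), and by 0.268 with sham 2 and 3 apart. For trained minus control rats it differed by -0.0789 (-0.164 to -0.0240). Over 8-fold PCM1-positive it was -0.832 (-3.02 to 0.719) for banding and 0.494 (0.214 to 0.714) for training. For these banding differences sham 2 and 3 were summed as stored. For the group means in the Results 1 was taken off each summed count, so those means give slightly different differences. With the replicate number as a block, 0 genes of either side were called for banding and 0 for training. Between same-numbered libraries, with sham 2 and 3 apart, the banded share was lower in all 4 for the genes over 8-fold PCM1-positive (by -1.84 to -1.10 percentage points) and higher in all 4 for those over 8-fold PCM1-negative (0.108 to 0.656); sham 2 and 3 are not independent there. The blocked banding fit, also with them apart, had a median of 0.14 over 2-fold PCM1-negative and of -0.04 over 2-fold PCM1-positive. At an unadjusted p under 0.05 in this fit there were 219 PCM1-negative genes (7.73%), 193 higher and 26 lower. On the PCM1-positive side there were 248 (9.63%), 105 higher and 143 lower. Among all 12305 genes tested there were 792 (6.44%), 447 higher and 345 lower. Same-numbered deviations correlated at 0.764, 0.506, 0.155 and 0.0860 for banding and at -0.0381, 0.0353, 0.128 and 0.0751 for training. For the sort itself, the fractions could not be compared in pairs, because the sort table gives no value per sample. The alternatives on the sides, on single libraries and on mean counts were chosen after seeing the data. The planned medians of marker lists were not run. Depth limits the scarce PCM1-negative genes, of which 202 in trained 2 and 197 in control 2 stood at the stored minimum past 8-fold.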
